A study of Mus musculus with 8 samples.

Results

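Neutrophils of the bone marrow were divided into a mature and an immature stage, chosen by the RNA of 3 granule proteins in each cell, and the stages were compared within each mouse hashtag. A cell with no Csf1r count was called mature where Camp, Ngp and Ltf together made up under 1% of its unique molecular identifiers (UMIs, counted RNA molecules) and S100a8 and S100a9 together at least 3%. It was called immature where Camp, Ngp and Ltf made up at least 1%. With a single hashtag required, 1403 mature and 1636 immature cells remained, 3039 of the 5682 marrow cells and of the 20012 cells of the series. Another 103 mature and 252 immature cells had no single hashtag, and 99 and 244 of these, in the same order, carried 2 hashtags at a count of at least 20. UMIs of Csf1r, the receptor gene of monocytes and macrophages, kept out 341 further cells that met the mature and 184 that met the immature thresholds. Among cells with no Csf1r count, 895 met neither rule.

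All cells came from female C57BL6/J mice with a subcutaneous tumor of MOPC cells, a mouse oropharyngeal carcinoma line, so both stages share the tumor and no tumor-free mice entered the comparison. Wild-type mice and mice of a gene knockout labelled Genotype_02 were pooled in each tissue, and no hashtag is tied to a genotype in the labels, so the genotypes behind the 8 hashtags are unknown. Cells were flushed from the femur, and living cells were sorted that carried Gr1 and lacked NK1.1, FcRe, Ter119, B220 and CD3, or that lacked Gr1 and carried cKit. The marrow gave a single RNA library with its antibody library, and the tissue of a cell was read from the number at the end of its barcode, a link that no source spells out. Each hashtag was taken as 1 mouse, which is an assumption. The p-values thus describe the spread among 8 hashtags of 1 library.

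Neutrophils form in the marrow from promyelocytes through myelocytes and metamyelocytes to band and segmented cells, which leave for the blood. Their granules are filled in waves: azurophil granules with proteases and myeloperoxidase first, specific granules with lactoferrin and cathelicidin next, and gelatinase granules last. Division stops at about the step at which specific granule proteins are made, and receptors for chemoattractants and growth factors accumulate later.

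The gene start regions of Ltf, Ngp, Lcn2 and Retnlg are shown as examples of granule genes. Ltf and Ngp are genes of the thresholds, which fix their direction, and of the others Lcn2 was lower and Retnlg higher in mature sums. C/EBPε is a factor known to be needed for specific granule genes in mice. The sequences are from RefSeq (GRCm38.p6), run 5′ to 3′ on the strand of the gene and cover the 250 bases before its start. Capitals mark the letters TTGCNNAA on either strand, a form of the motif that C/EBP factors bind, with N for any base.
Ltf: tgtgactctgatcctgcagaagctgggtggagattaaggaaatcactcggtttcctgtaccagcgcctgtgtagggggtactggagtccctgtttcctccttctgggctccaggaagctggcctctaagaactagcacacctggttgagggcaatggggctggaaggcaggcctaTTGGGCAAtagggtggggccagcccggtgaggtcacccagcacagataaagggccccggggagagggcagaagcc
Ngp: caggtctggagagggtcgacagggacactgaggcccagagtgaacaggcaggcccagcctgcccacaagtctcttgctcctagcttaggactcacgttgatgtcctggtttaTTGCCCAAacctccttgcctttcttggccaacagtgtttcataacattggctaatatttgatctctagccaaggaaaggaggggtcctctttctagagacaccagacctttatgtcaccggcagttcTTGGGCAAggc
Lcn2: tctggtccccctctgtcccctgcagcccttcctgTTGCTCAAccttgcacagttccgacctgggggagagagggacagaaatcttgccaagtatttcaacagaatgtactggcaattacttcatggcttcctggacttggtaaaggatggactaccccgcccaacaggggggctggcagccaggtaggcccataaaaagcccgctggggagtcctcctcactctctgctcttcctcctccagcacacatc
Retnlg: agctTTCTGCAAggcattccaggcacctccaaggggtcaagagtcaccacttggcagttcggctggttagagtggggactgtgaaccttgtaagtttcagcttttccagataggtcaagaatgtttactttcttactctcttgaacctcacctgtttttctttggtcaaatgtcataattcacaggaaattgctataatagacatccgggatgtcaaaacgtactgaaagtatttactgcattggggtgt

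The windows are chr9:111019042-111019291 on the plus strand for Ltf and chr9:110419558-110419807 on the plus strand for Ngp. They are chr2:32387740-32387989 on the minus strand for Lcn2 and chr16:48872358-48872607 on the plus strand for Retnlg. The match of Ltf starts 75 bases before the gene start, those of Ngp 138 and 11 bases before it, that of Lcn2 216 and that of Retnlg 246. Camp has no match in its window. The letters occur in 3142 of 32851 such windows (9.56%). Counted by gene, they occur in 4 of 11 specific granule genes other than Camp, Ngp and Ltf. They occur in 3 of 9 gelatinase granule genes and in 2 of 25 cell cycle genes. A gene with several windows is counted by the one with the most matches. The 9.56% over all windows makes no such choice. A match is a description of these letters and not a binding site.

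The split itself is a description. Camp, which encodes cathelicidin (chromosome 9, 109847377 to 109849456), was at 748 ± 152 CPM (counts scaled to an equal total of UMIs in each sum) in mature sums and 44592 ± 1994 in immature sums (SD, n = 8 each). Ngp, which encodes neutrophilic granule protein (chromosome 9, 110419808 to 110423012), was at 1134 ± 236 CPM in mature and 31911.5 ± 1834 in immature sums. Ltf, which encodes lactoferrin (chromosome 9, 111019292 to 111042766), was at 114 ± 38.4 CPM in mature and 8253 ± 598 in immature sums. Per cell the 3 genes had a median share of 0.0869% of UMIs in mature and 8.60% in immature cells. In 171 marrow cells with erythroid marker RNA and under 3% of S100a8 and S100a9, which should lack these genes, that share was 0.0241%. These cells held a median of 23885 UMIs and mature cells 3648, so the same number of UMIs is a larger share in a mature cell. Whether mature cells lie above this background was not tested. The calcium-binding protein genes S100a8 and S100a9 together had a median share of 28.3% in mature and 35.2% in immature cells, and 12 immature cells were under 3%. Near the threshold lay 130 mature cells with a granule gene share of 0.5% to 1% and 139 immature cells with 1% to 2%.

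The stages also differed in depth. Mature cells held a median of 3648 UMIs and 1206 genes, and immature cells 8978.5 UMIs and 1979 genes, a ratio of 2.46 in UMIs, immature over mature. The 8 sums of mature cells held 75 to 395 cells and 290157 to 1568085 UMIs, and those of immature cells 61 to 392 cells and 663721 to 4424355 UMIs. Levels are therefore given as shares of all UMIs (CPM) unless stated per cell, and a gene that is higher by less than the difference in depth has fewer UMIs per mature cell. Less RNA in a cell and less RNA captured from it cannot be told apart. The mature share of the cells of both stages was 46.6% ± 6.32 (SD, n = 8 hashtags; 38.2% to 55.1%), which the sort and the thresholds set. Of the members, 10 cells shared a barcode with a cell of another library.

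EdgeR's quasi-likelihood test, with the hashtag as a block, called 2513 of 8037 genes higher in mature sums (31.3%) and 2792 lower (34.7%) at a Benjamini-Hochberg adjusted p under 0.05, with a median log2 fold change of -0.10 over all genes. Of the called genes 47.4% were higher. With library sizes that leave out the 5 genes of the thresholds the counts were 1815 higher and 3807 lower (32.3% higher, median log2 fold change -0.41), and with cells thinned to 1000 UMIs 1378 and 681 of 3106 genes tested (66.9% higher, median 0.32). Per cell, 465 genes were higher (5.79%) and 6924 lower (86.2%), with a median log2 fold change of -1.52. The counts of the lists below are to be set beside these shares, 31.3% higher and 34.7% lower in share of UMIs. This holds most for the per-cell counts, since most genes were lower on that scale. The stages were cut on RNA of the same cells, so the p-values describe how steady a difference was across hashtags.

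Specific granule genes other than those of the thresholds were mostly lower in mature neutrophils. All 14 listed were tested, and 12 were lower and 2 higher, with a median log2 fold change of -1.48. Per cell 13 were lower and 1 higher, beside 86.2% lower over all genes. Lcn2, which encodes the siderophore-binding protein lipocalin-2, had 3502 to 5914 CPM (median 4283) in mature sums and 13629 to 17331 CPM (median 15169.8) in immature sums. The groups did not overlap, and the log2 fold change was -1.81 ± 0.05 (SE, edgeR adjusted p = 2.2e-13). Chil3, a chitinase-like protein gene, had 89.9 to 544 CPM (median 194) in mature sums and 6018 to 8403 CPM (median 7058) in immature sums, a log2 fold change of -5.04 ± 0.21. Orm1, which encodes an acute-phase protein, had 0 to 5.08 CPM (median 2.98) in mature sums and 175 to 245 CPM (median 201) in immature sums, a log2 fold change of -6.31 ± 0.20. Neither gene overlapped between the stages. Cybb, the membrane subunit of the oxidase that makes superoxide, had 230.4 to 354 CPM in mature and 1369 to 1531 CPM in immature sums, a log2 fold change of -2.37 ± 0.08. The 2 members that were higher in share were Hp, the haptoglobin gene, which was lower per cell, and Slpi, which encodes an inhibitor of leukocyte proteases. Slpi had 1904 to 2913 CPM (median 2581) in mature sums and 544 to 792 CPM (median 642) in immature sums, a log2 fold change of 1.95 ± 0.06.

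Genes listed for gelatinase granules, the last wave, were mostly higher in mature neutrophils. The granules that hold the products of these genes, and of Mmp8 below, were not measured. All 10 listed were tested, and 8 were higher, 1 (Ceacam1) lower and 1 not called, with a median log2 fold change of 1.61; per cell 5 were higher and 4 lower. Retnlg, which encodes a resistin-like protein of granulocytes (ENSMUSG00000022651), had 35180.3 to 46004 CPM (median 39694) in mature sums and 6125 to 9007 CPM (median 7831) in immature sums. The groups did not overlap, and it differed by 2.39 ± 0.07 on the log2 scale (edgeR adjusted p = 2.5e-13) and by 0.97 per cell. Mmp8, which encodes neutrophil collagenase, had 1908 to 3191 CPM (median 2436) in mature sums and 987 to 1527 CPM (median 1295) in immature sums, a log2 fold change of 0.94 ± 0.08. Its groups did not overlap either, but per cell the sign of Mmp8 turned, to -0.47. The lysosomal protease gene Ctsd (2.005 ± 0.07), the formyl peptide receptor gene Fpr1 (1.96 ± 0.11) and the metalloprotease gene Adam8 (1.52 ± 0.08; 0.10 and not called per cell) were also higher.

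**Figure D1:**
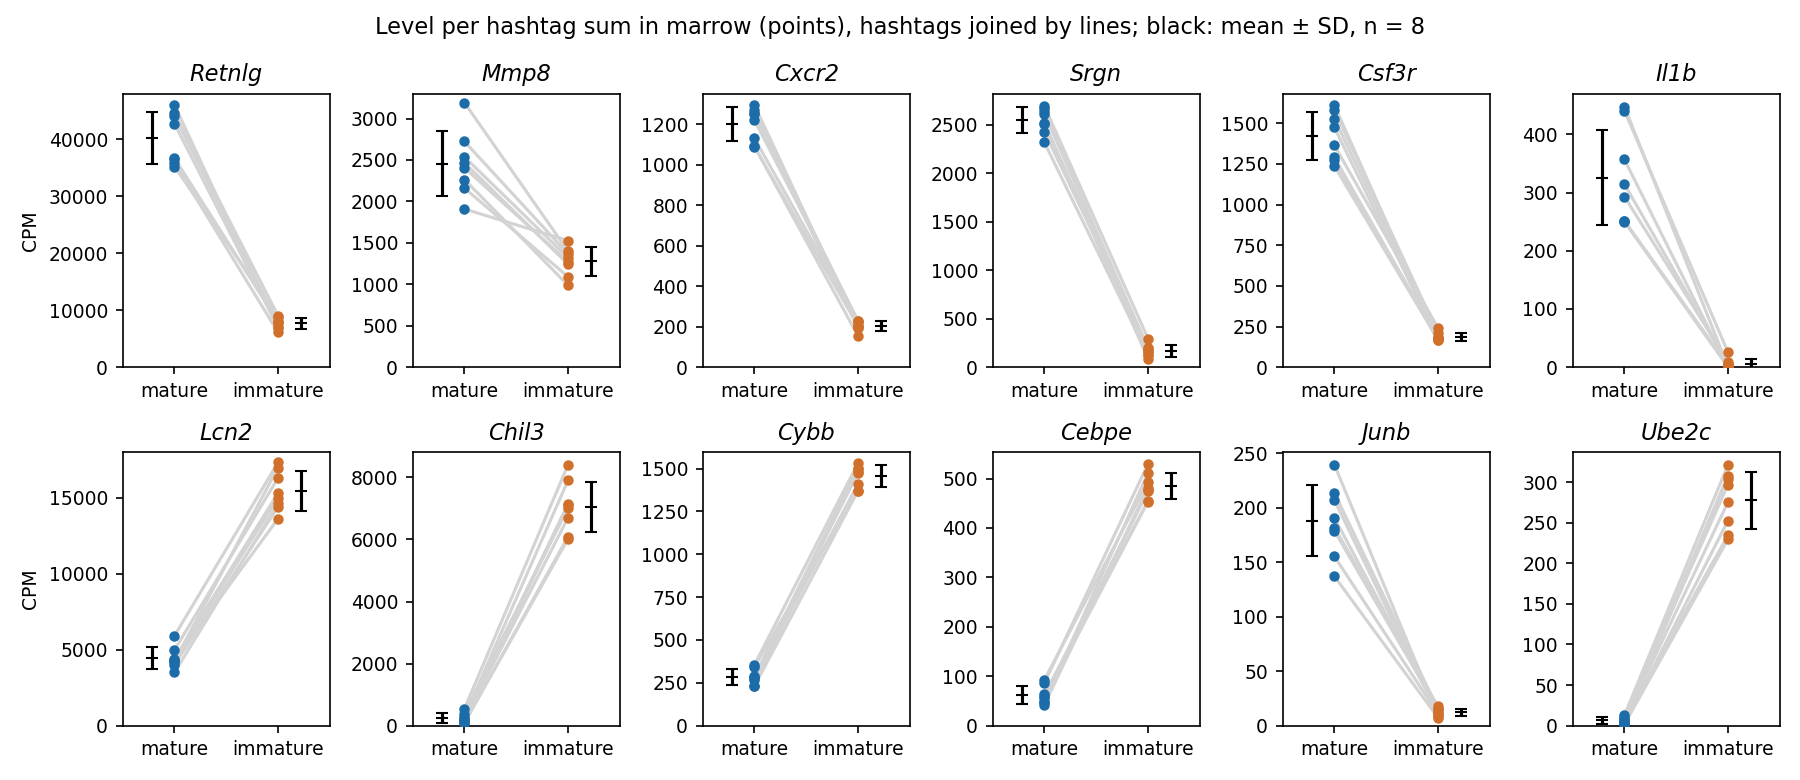
Level in CPM of 12 genes in the 16 marrow sums, mature left of immature in each panel; points are hashtag sums, grey lines join the sums of a hashtag, and black marks give mean ± SD (n = 8). Retnlg lies at 35180.3 to 46004 CPM in mature and 6125 to 9007 CPM in immature sums, and Lcn2 at 3502 to 5914 CPM in mature and 13629 to 17331 CPM in immature sums.

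Along the share of Camp, Ngp and Ltf, Retnlg and Mmp8 were highest between the ends. Retnlg averaged 35492 ± 4786 CPM in cells with a share under 0.1% (SD, n = 8 hashtags) and 47249 ± 4483 at 0.3% to 1%, the upper end of the mature stage. It averaged 34002 ± 5271 at 1% to 3%, the lower end of the immature stage, and 699 ± 179 at 10% or more. Mmp8 averaged 1798 ± 394 CPM under 0.1%, 3654 ± 385 at 0.3% to 1%, 3392 ± 371 at 1% to 3% and 296 ± 67.5 at 10% or more. The immature cells nearest the threshold thus carried both genes at levels like those of mature cells. The ranges are made from the genes of the thresholds, and these values carry no test. Depth changed along them too, with median UMIs per cell of 11724.5 at 10% or more, 5068 at 0.3% to 1% and 3246 under 0.1%. The lowest ranges thus rest on few UMIs of the threshold genes in a cell.

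Csf3r, the receptor gene of the granulocyte growth factor G-CSF, was highest where that share was lowest. It averaged 1921 ± 191 CPM in cells under 0.1%, 522 ± 53.1 at 0.3% to 1%, 402 ± 44.6 at 1% to 3% and 101 ± 14.6 at 10% or more. Il1b, the interleukin-1β gene, averaged 514 ± 171 CPM under 0.1%, 245 ± 77.2 at 0.1% to 0.3%, 18.9 ± 21.3 at 0.3% to 1% and 0.925 ± 1.09 at 10% or more. Within the mature stage Il1b thus differed more between these ranges than Retnlg did. Ube2c, a gene of dividing cells, averaged 5.52 ± 3.17 CPM under 0.1%, 15.4 ± 31.3 at 1% to 3%, 225 ± 50.5 at 3% to 10% and 416 ± 66.6 at 10% or more. Its RNA lay mostly in immature cells with a share of 3% or more.

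**Figure D2:**
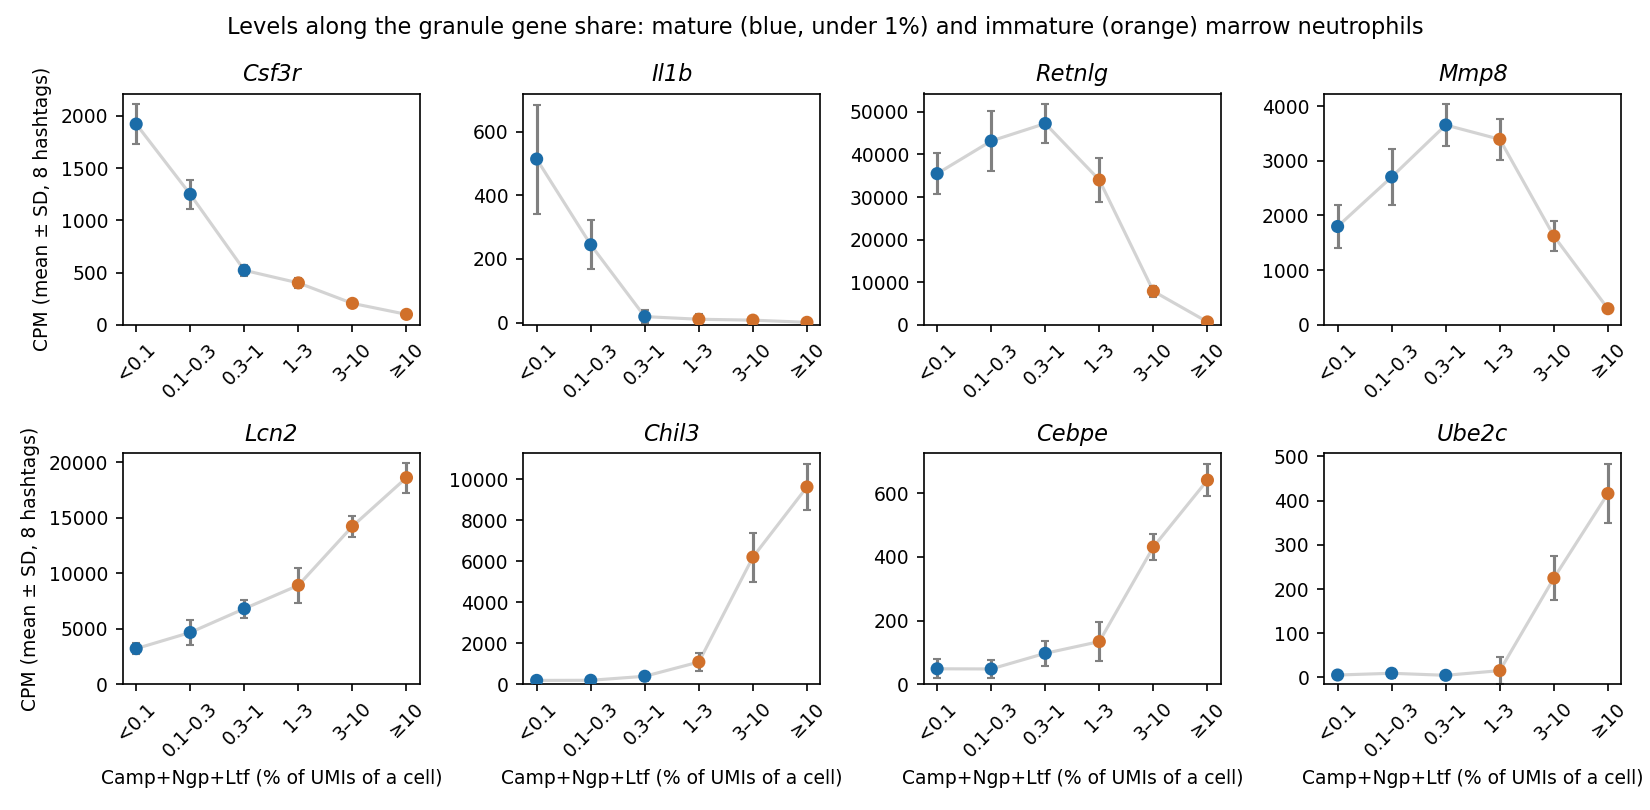
Level in CPM of 8 genes (mean ± SD over 8 hashtags) in 6 ranges of the share of Camp, Ngp and Ltf in the UMIs of a cell; blue points are ranges of mature and orange points ranges of immature cells. Csf3r and Il1b are highest at the low end of that share, Retnlg and Mmp8 at 0.3% to 1%, and Lcn2, Chil3, Cebpe and Ube2c at 10% or more.

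Of 10 azurophil granule genes tested, 3 were higher, 2 lower and 5 not called, both shares below the 31.3% higher and 34.7% lower over all genes, so nothing is read from the count; per cell 1 was higher and 3 lower. Srgn encodes serglycin, the proteoglycan that packs granule proteases; it had 2318 to 2692 CPM (median 2566) in mature sums and 88.2 to 295 CPM (median 160.2) in immature sums, a log2 fold change of 3.99 ± 0.14. Ap3s1, an adaptor subunit of vesicle sorting, was lower (-0.78 ± 0.09). The protease gene Ctsg had 8.03 to 708 CPM in mature and 10.3 to 101 CPM in immature sums, with overlapping groups, and a log2 fold change of 1.30 ± 0.51 (edgeR adjusted p = 0.035). Among mature cells, 8 had 5 or more UMIs of Mpo, the myeloperoxidase gene, and they held 90.5% of the Mpo UMIs of that stage and 94.1% of those of the elastase gene Elane; their share of S100a8 and S100a9 was at most 7.91%. With mature cells held to 15% or more of S100a8 and S100a9, Ctsg was lower (-1.34, edgeR adjusted p = 2.5e-07). Without hashtag 4, 7 or 8 it was at 0.92, 0.91 and 1.04 and not called. Over its alternatives the edgeR or DESeq2 adjusted p ran from 2.5e-07 to 0.83.

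Cell cycle genes were lower in mature neutrophils. Of 30 tested, 26 were lower, none higher and 4 not called, with a median log2 fold change of -3.23. Per cell all 30 were lower, beside 86.2% over all genes. The 4 not called were Mcm2, Mcm3, Mcm4 and Mcm6 of the helicase that opens DNA for copying. Ube2c, a ubiquitin-conjugating enzyme of mitotic exit, had 1.62 to 12.7 CPM (median 6.55) in mature sums and 229.5 to 321 CPM (median 286) in immature sums, a log2 fold change of -5.57 ± 0.17 (edgeR adjusted p = 3.6e-13). Its groups did not overlap. Cenpf, a kinetochore protein gene, was at -5.55 ± 0.25, and the spindle assembly gene Tpx2 at -4.12 ± 0.22. Hmgb2, a chromatin protein gene abundant in dividing cells, was at -1.10 ± 0.06 and had 1358 to 1782 CPM in mature and 2939 to 3462 CPM in immature sums.

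Of 16 genes of chromatin and nuclear shape 14 were tested, and 10 were lower and 3 higher. Per cell all 14 were lower, beside 86.2% over all genes. The histone variant gene H2afz (-2.22 ± 0.12) and the nucleosome-binding protein gene Hmgn2 (-1.92 ± 0.11) were lower. Lbr and Lmnb1, which encode the lamin B receptor and a lamina protein, and Padi4, the enzyme that citrullinates histones, were the 3 higher. Padi4 had 297 to 396 CPM in mature and 176 to 222 CPM in immature sums (0.84 ± 0.07), and Lmnb1 was at 1.10 ± 0.09; per cell the signs turned, to -0.58 for Padi4 and -0.32 for Lmnb1. Of 66 clustered histone genes 43 were tested, and 35 were lower and 3 higher (median -3.08); many are near-identical copies, and counting could split their reads. Of 82 cytosolic ribosomal protein genes 80 were tested, and 59 were lower and 5 higher, with a median of -0.56; per cell 79 were lower.

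Of 78 tested nuclear genes of the respiratory chain, of 85 listed, 66 were lower and 4 higher (median -0.75), and all 12 tested genes of the mitochondrial genome were lower (median -1.02). Mitochondrial UMIs made up a median of 0.0903% in mature and 0.230% in immature cells. Of 23 tested genes of the secretory pathway and protein folding, of 24 listed, 16 were lower and none higher, among them the chaperone gene Canx (-1.05 ± 0.17) and Spcs1 of the signal peptidase (-0.96 ± 0.15). Xbp1, a transcription factor gene of secretory cells, had 21.2 to 51.7 CPM in mature and 53.7 to 76.8 CPM in immature sums (-0.96 ± 0.12, edgeR adjusted p = 4.6e-06). Its call was lost with thinned cells (log2 fold change -0.54, edgeR adjusted p = 0.072; the lowest over its alternatives was 1.5e-10).

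Of 26 transcription factor genes 20 were tested; 15 were higher and 5 lower, and per cell 8 were higher and 9 lower. Cebpe, which encodes C/EBPε, had 42.4 to 92.7 CPM (median 57.5) in mature sums and 454 to 529 CPM (median 479) in immature sums. Its groups did not overlap, and its log2 fold change was -3.01 ± 0.12 (edgeR adjusted p = 4.3e-12). The others lower were Gfi1, Runx1, Myb and Klf5. Junb, which encodes an AP-1 subunit, had 137 to 239.7 CPM (median 186) in mature sums and 7.41 to 17.6 CPM (median 11.8) in immature sums, a log2 fold change of 3.85 ± 0.13. Jund (2.91 ± 0.10) and Mxd1, whose product opposes Myc (1.68 ± 0.06), were higher, as were Cebpa, Cebpb and Cebpd, of which Cebpd was lower and Cebpa not called per cell.

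**Figure D3:**
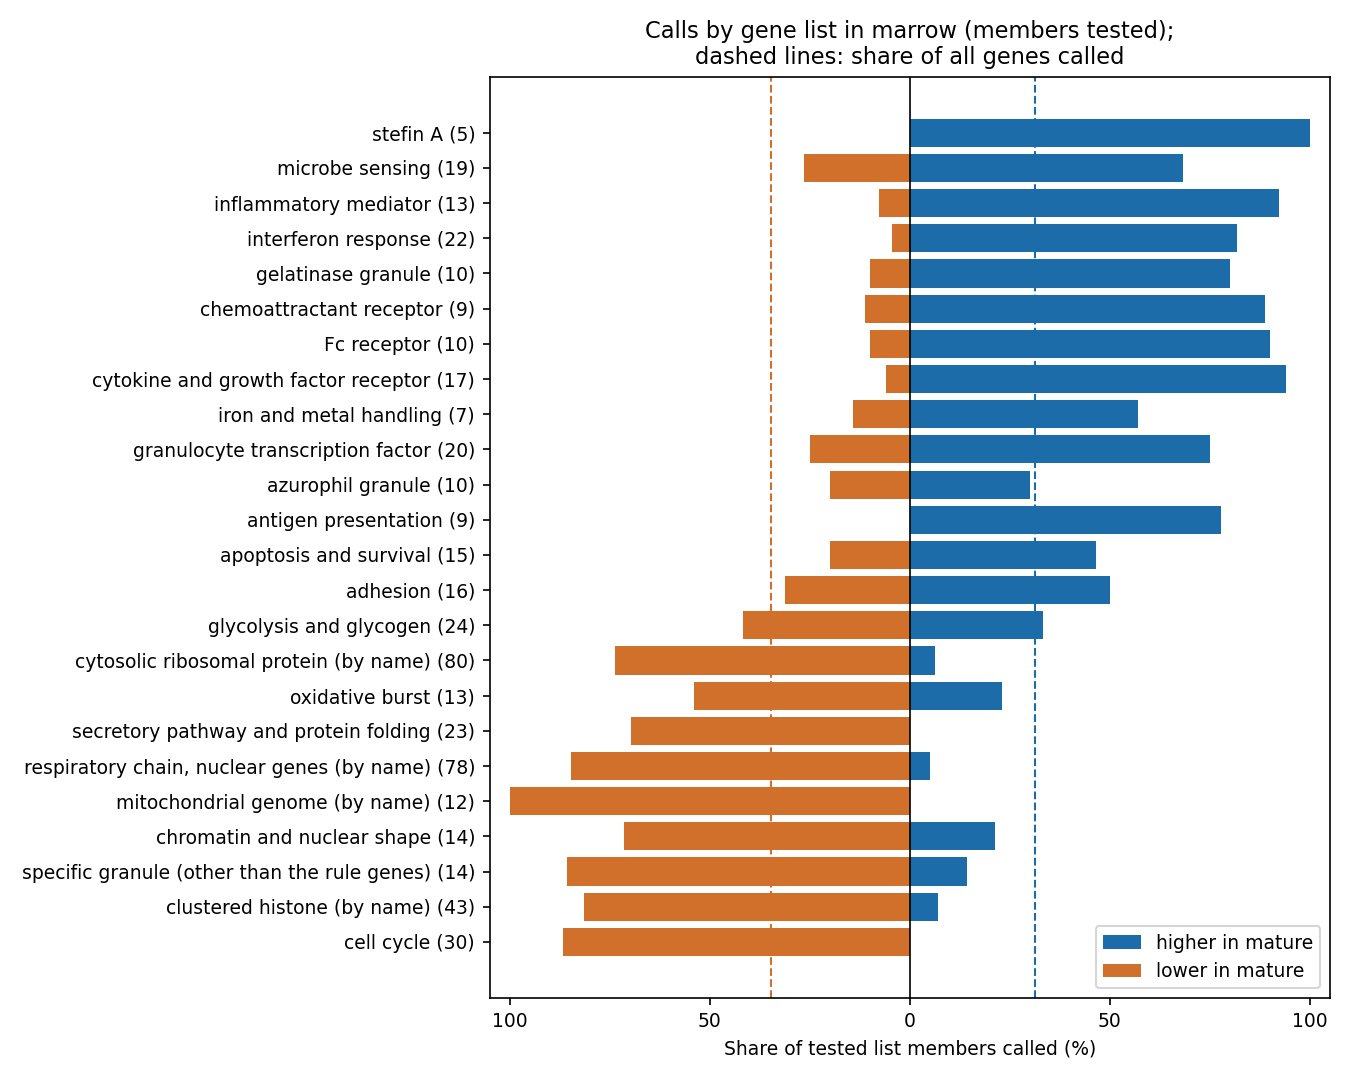
Share of the tested members of each gene list called higher (blue, right) or lower (orange, left) in mature than in immature sums, with the number tested in parentheses; calls are on shares of UMIs, and dashed lines mark the shares over all genes, 31.3% higher and 34.7% lower. Lists of receptors, inflammatory mediators and stefins lie mostly on the higher side, and cell cycle, histone, specific granule and mitochondrial lists mostly on the lower side.

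Receptors that guide and sustain neutrophils were mostly higher in the mature stage as shares of UMIs. Of 19 cytokine and growth factor receptor genes 17 were tested; 16 were higher and 1, the stem cell factor receptor gene Kit, was lower, and per cell 6 were higher and 6 lower. Csf3r (ENSMUSG00000028859) had 1236 to 1611 CPM (median 1419.6) in mature sums and 166 to 241 CPM (median 174) in immature sums. The groups did not overlap, with a log2 fold change of 2.94 ± 0.08 (edgeR adjusted p = 1.2e-13) and of 1.52 per cell. Il1r2, the decoy receptor gene of interleukin-1 (2.26 ± 0.09), Il6ra (1.81 ± 0.08) and Il17ra (1.57 ± 0.07; 0.15 and not called per cell) were higher.

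Of 14 chemoattractant receptor genes 9 were tested; 8 were higher and Ltb4r1, a leukotriene receptor gene, was lower, and per cell 4 were higher and 3 lower. Cxcr2, the receptor gene of chemokines that call neutrophils out of the marrow, had 1089 to 1296 CPM (median 1238) in mature sums and 155 to 229.5 CPM (median 205) in immature sums, with no overlap (2.56 ± 0.07, edgeR adjusted p = 1.6e-13). Ccr1, a chemokine receptor gene (2.31 ± 0.08), and the complement receptor gene C5ar1 (1.39 ± 0.07; -0.0293 per cell) were higher. Cxcr4, the receptor gene of the marrow-retaining chemokine CXCL12, had 74.3 to 104 CPM in mature and 53.7 to 78.3 CPM in immature sums, with overlapping groups. Its log2 fold change of 0.40 ± 0.08 turned to -1.02 per cell, and the call was lost with thinned cells (0.14, edgeR adjusted p = 0.54) and with library sizes that leave out the genes of the thresholds (0.0944, edgeR adjusted p = 0.31); the lowest adjusted p over its alternatives was 2.2e-08.

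Of 18 adhesion genes 16 were tested. Of these, 8 were higher and 5 lower, and per cell 3 were higher and 11 lower. The shares over all genes were 31.3% higher and 34.7% lower, and 86.2% lower per cell. Nothing is thus read from the counts of lower genes. Selplg, a gene of a ligand for vessel-wall adhesion molecules, had 491 to 630.2 CPM (median 548) in mature sums and 76.6 to 145 CPM (median 96.6) in immature sums and a log2 fold change of 2.49 ± 0.09, and the integrin gene Itgal was at 1.80 ± 0.08. Integrin genes went different ways: Itgb1, Itga6 and Itgb2l were lower, and Itgam was not called.

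Inflammatory and microbe-sensing genes were mostly higher on both scales. Of 20 inflammatory mediator genes 13 were tested; 12 were higher and Tnf was lower, and per cell 8 were higher and 4 lower. Il1b (ENSMUSG00000027398) had 250.3 to 448 CPM (median 304) in mature sums and 0 to 25.6 CPM (median 3.11) in immature sums, with no overlap and a log2 fold change of 6.00 ± 0.32 (edgeR adjusted p = 1.4e-10). Ccl6, a chemokine gene, had 2298 to 3069 CPM (median 2521) in mature sums and 38.7 to 126 CPM (median 68.7) in immature sums, with no overlap (5.16 ± 0.17). The interleukin-1 antagonist gene Il1rn (2.04 ± 0.09) and Hdc, the gene of the enzyme that makes histamine (1.59 ± 0.07), were higher too. Of 23 microbe-sensing genes 19 were tested; 13 were higher and 5 lower (11 and 6 per cell), with the inflammasome gene Nlrp3 (4.11 ± 0.12), the lectin receptor genes Clec4d (3.94 ± 0.13) and Clec4e (1.89 ± 0.09) and the receptor gene Trem1 (1.92 ± 0.11) higher. Of 13 Fc and paired receptor genes 10 were tested; 9 were higher (3 higher and 4 lower per cell), among them Cd300ld (3.52 ± 0.09), and the inhibitory receptor gene Fcgr2b was lower (-1.02 ± 0.20).

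Of 23 interferon response genes 22 were tested; 18 were higher, 1 (Ifitm6) lower and 3 not called, with a median of 1.64, and per cell 9 were higher and 7 lower. Ifitm1, which encodes a membrane protein of a family that hinders virus entry, had 489 to 1012 CPM (median 696) in mature sums and 15.1 to 44.5 CPM (median 20.3) in immature sums, with no overlap (4.84 ± 0.18). Ifitm2 (1.76 ± 0.08) and Slfn1 (2.16 ± 0.10) were higher. Of 13 oxidative burst genes 7 were lower and 3 higher. Per cell 12 were lower and 1 higher, beside 86.2% lower over all genes, so nothing is read from the per-cell count. Hvcn1, the proton channel gene that balances the charge moved by the oxidase, had 0 to 17.8 CPM in mature and 61.9 to 77.4 CPM in immature sums (-3.63 ± 0.22). The oxidase subunit genes Cybb and Cyba were lower on both scales. Txnip, a thioredoxin-binding protein gene, was higher (2.10 ± 0.08).

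Of 19 survival and cell death genes 15 were tested; 7 were higher, 3 lower and 5 not called, with both survival and death genes among the higher, and per cell 1 was higher and 11 lower. Mcl1, on which neutrophil survival is known to depend, had 524 to 749 CPM in mature and 129.7 to 184 CPM in immature sums, with no overlap (2.13 ± 0.07). The inhibitor gene Birc3 was at 1.29 ± 0.09 and the death-promoting gene Bid at 1.63 ± 0.14. Per cell Birc3 was at -0.14 and Bid at 0.21. Of 25 genes of glycolysis and glycogen 24 were tested. Of these, 8 were higher and 10 lower, with a median of -0.02, and per cell 2 were higher and 21 lower. These counts lie near the shares over all genes, 31.3% higher and 34.7% lower, and 86.2% lower per cell. Nothing is thus read from the counts. The glucose transporter gene Slc2a3 (1.63 ± 0.07), the pentose phosphate gene Taldo1 (1.21 ± 0.06) and the glycogen phosphorylase gene Pygl (0.95 ± 0.06) were higher, and Ldha and Pgk1 were lower. Per cell Taldo1 was at -0.21 and Pygl at -0.47.

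Of 11 iron and metal genes 7 were tested. Of these, 4 were higher and 1, the transferrin receptor gene Tfrc, was lower, and per cell 3 were higher and 3 lower. For this list and the next 2, the shares over all genes were 31.3% higher and 34.7% lower, and per cell 5.79% and 86.2%. The ferritin genes Fth1 (2.10 ± 0.06) and Ftl1 (1.60 ± 0.05) and the iron exporter gene Slc40a1 (1.27 ± 0.09; -0.15 per cell) were higher. Of 9 genes of the stefin A and cystatin list 5 were tested, and all 5 were higher (3 higher and 1 lower per cell), with Stfa2l1 at 3.94 ± 0.22 and Stfa2 at 3.22 ± 0.39; these copies resemble each other, and their reads can be split. Of 13 antigen presentation genes 9 were tested; 7 were higher and none lower, and per cell 2 were higher and 7 lower. H2-D1, a class I gene, was at 1.63 ± 0.05; class I genes resemble each other, and their reads can be split. H2-K1, another, was at 0.56 ± 0.12, turned to -0.87 per cell and lost its call without the replicate block (edgeR adjusted p = 0.074) and with library sizes that leave out the genes of the thresholds (0.052; the lowest over its alternatives was 3.0e-07).

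Genes outside the lists were also among those with the highest and the lowest fold changes. Cpa6, a carboxypeptidase gene, had 10 UMIs in mature and 3307 in immature sums, or 0 to 3.19 CPM in mature and 160.4 to 226 CPM in immature sums (log2 fold change -6.66 ± 0.21, edgeR adjusted p = 4.0e-13). Inhba, which encodes an activin subunit, had 0 to 6.03 CPM in mature and 122 to 151 CPM in immature sums (-5.28 ± 0.21). Neither overlapped between the stages. On the higher side, Sirpb1a, a paired receptor gene, had 126 UMIs in mature and 2 in immature sums, a ratio of 198 after scaling to all UMIs (exact 95% counting interval 53.8 to 1656), and close copies can share its reads. Pla2g7, whose product degrades platelet-activating factor, had 381 to 595 CPM in mature and 4.41 to 19.6 CPM in immature sums (5.42 ± 0.17). The sialyltransferase gene St3gal6 (5.56 ± 0.28), the adhesion molecule gene Jaml (4.87 ± 0.17) and Wfdc17 (5.44 ± 0.31) were higher too. A chemokine gene, Ccl5, was at -6.24 ± 1.03, but 1 immature cell of hashtag 1 held 99.8% of its 467 UMIs in that stage. Prg2, an eosinophil granule gene, had all of its 175 mature UMIs in 1 cell of hashtag 3 (6.31 ± 1.16). Without those hashtags too few UMIs were left to test either gene.

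Surface antibodies gave a measure of other molecules in the same cells. Of 18, 4 were higher (22.2%) and 9 lower (50%) on mature cells by an exact two-sided sign-flip permutation test over the 8 hashtags, adjusted over the 18; its smallest possible p is 0.0078. CXCR2 had 6.35 to 8.41 counts per cell (median 7.59) on mature and 2 to 6.28 (median 2.48) on immature cells, against 1.44 on erythroid-marker cells. The groups did not overlap, and the log2 ratio was 1.37 ± 0.19 (SE, n = 8, exact permutation p = 0.0078, adjusted p = 0.012, higher in 8 of 8 hashtags). CD11a (0.39 ± 0.04) and CD44 (0.19 ± 0.03), both adhesion molecules, were also higher in 8 of 8 hashtags. As a share of all antibody counts CD44 was at 0.047 and not called (adjusted exact permutation p = 0.06).

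CD11b, the integrin that binds complement, had 19.1 to 35.3 counts per cell (median 28.2) on mature and 44.6 to 107 (median 71.2) on immature cells (-1.31 ± 0.09). CD49d, an integrin that binds CD106, had 8.17 to 11.7 counts per cell (median 9.08) on mature and 19.6 to 32.1 (median 22.5) on immature cells (-1.30 ± 0.10), both below the 55.5 on erythroid-marker cells. CD106 had 3.28 to 6.79 counts per cell (median 5.09) on mature and 12 to 23.1 (median 18.1) on immature cells (-1.81 ± 0.14), against 13.5 on erythroid-marker cells. Mature cells lay below that value and the immature range spans it, so the level of CD106 is not read as expression. CD11b, CD49d and CD106 did not overlap between the stages, and each was lower on mature cells in 8 of 8 hashtags. CD16/32, the low-affinity Fc receptors, had 15.8 to 22.3 counts per cell (median 18.9) on mature and 25.4 to 37.8 (median 36.9) on immature cells, again lower in 8 of 8 without overlap (-0.91 ± 0.05). The stem cell factor receptor ckit (-1.88 ± 0.32), CD64 (-0.91 ± 0.17), MHCII (-1.22 ± 0.13), CD24 (-0.22 ± 0.07) and Ly6C (-0.27 ± 0.08) were lower with overlapping groups. The Ly6C call was lost without hashtag 2, 4, 5, 6, 7 or 8 (log2 ratio -0.34 to -0.24 over the 8 hashtags left out in turn; adjusted exact permutation p = 0.065 where lost), and hashtag 1 stood apart, at 97.8 counts on mature cells. Erythroid-marker cells averaged 93.4 counts of ckit, above both stages, and 364 of CD24, against 369 on mature and 427 on immature cells; erythroid cells or their precursors are known to carry CD49d, ckit and CD24. MHCII averaged 6.92 counts on mature and 15.8 on immature cells, against 16 on erythroid-marker cells, and CD64 averaged 1.08 and 2.06 in the same order, against 1.82, so neither is read as expression. CXCR4, CCR2, CD14 and CD69 were not called. CD115 is the product of Csf1r, which the thresholds use, and averaged 1.20 counts on mature and 0.829 on immature cells.

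**Figure D4:**
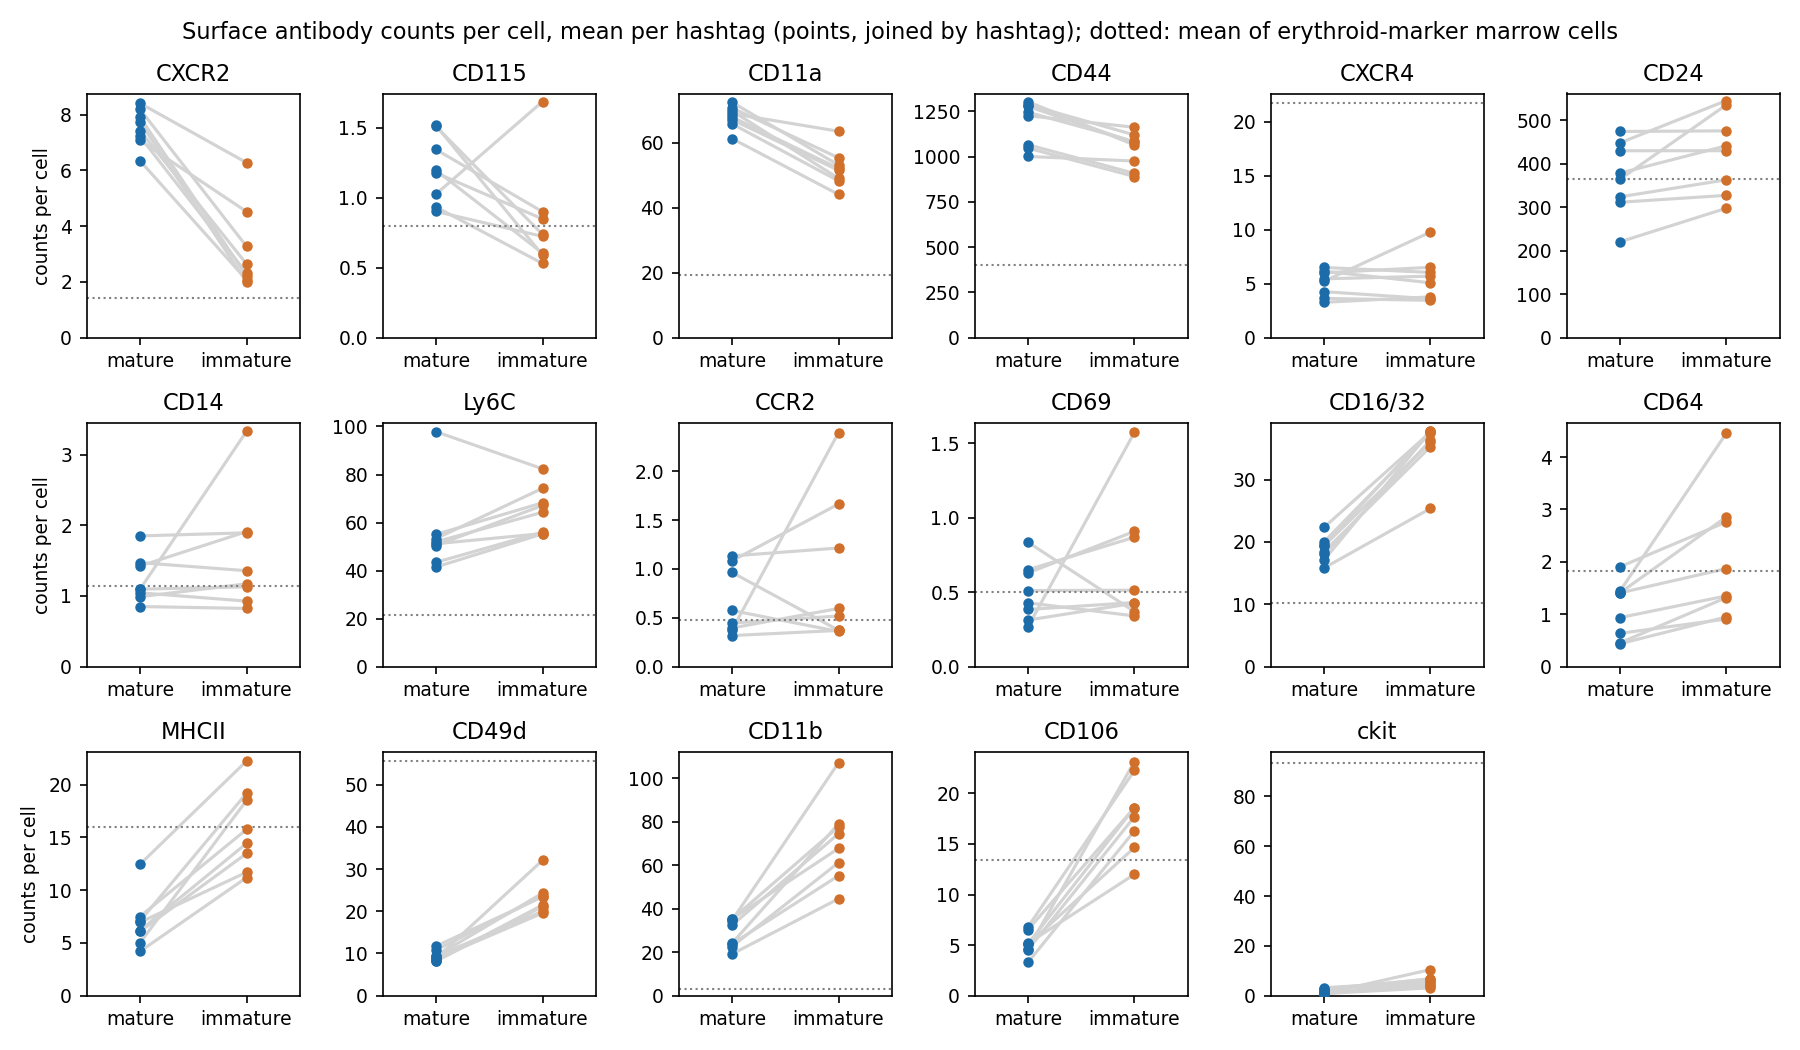
Mean counts per cell of 17 surface antibodies in each hashtag, mature left of immature, with hashtags joined by lines; dotted lines give the mean of 171 erythroid-marker marrow cells. CXCR2 is higher on mature cells in 8 of 8 hashtags, and CD16/32, CD49d, CD11b and CD106 are lower in 8 of 8 without overlap.

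RNA share and antibody were both higher for CXCR2, CD11a and CD44, and both lower for ckit (Kit, -1.51 ± 0.34) and Ly6C (Ly6c2, -0.47 ± 0.08). For CD49d, CD11b, CD106 and CD24 they went different ways or the RNA share was not called, and for CD16/32 its genes differed. Itga4, the gene of CD49d, had 75.8 to 152 CPM (median 121) in mature sums and 29.4 to 52.7 CPM (median 34.3) in immature sums. It was higher by 1.70 ± 0.14 on the log2 scale while the antibody was lower, and per cell its RNA differed by 0.28 and was not called (edgeR adjusted p = 0.096). Fcgr3, a gene of the CD16/32 antigen, was higher by 1.53 ± 0.07 in RNA share and not called per cell (0.11), while the antibody was lower. Fcgr2b, the other gene of that antigen, was lower as the antibody was (-1.02 ± 0.20 in share and -2.44 per cell). Itgam, the gene of CD11b, had 513 to 696 CPM in mature and 573 to 694 CPM in immature sums (0.02 ± 0.06, edgeR adjusted p = 0.76), and its RNA per cell was at -1.40, beside -1.31 for the antibody. Cd44 RNA was higher in share (1.26 ± 0.07) and lower per cell (-0.16). Vcam1, the gene of CD106, was not called in share (-0.75 ± 0.49), nor was Cd24a, that of CD24 (-0.09 ± 0.07). Per cell both were called lower, Vcam1 at -2.15 and Cd24a at -1.51, beside -1.81 for the CD106 and -0.22 for the CD24 antibody. The difference between RNA and antibody was not tested.

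**Figure D5:**
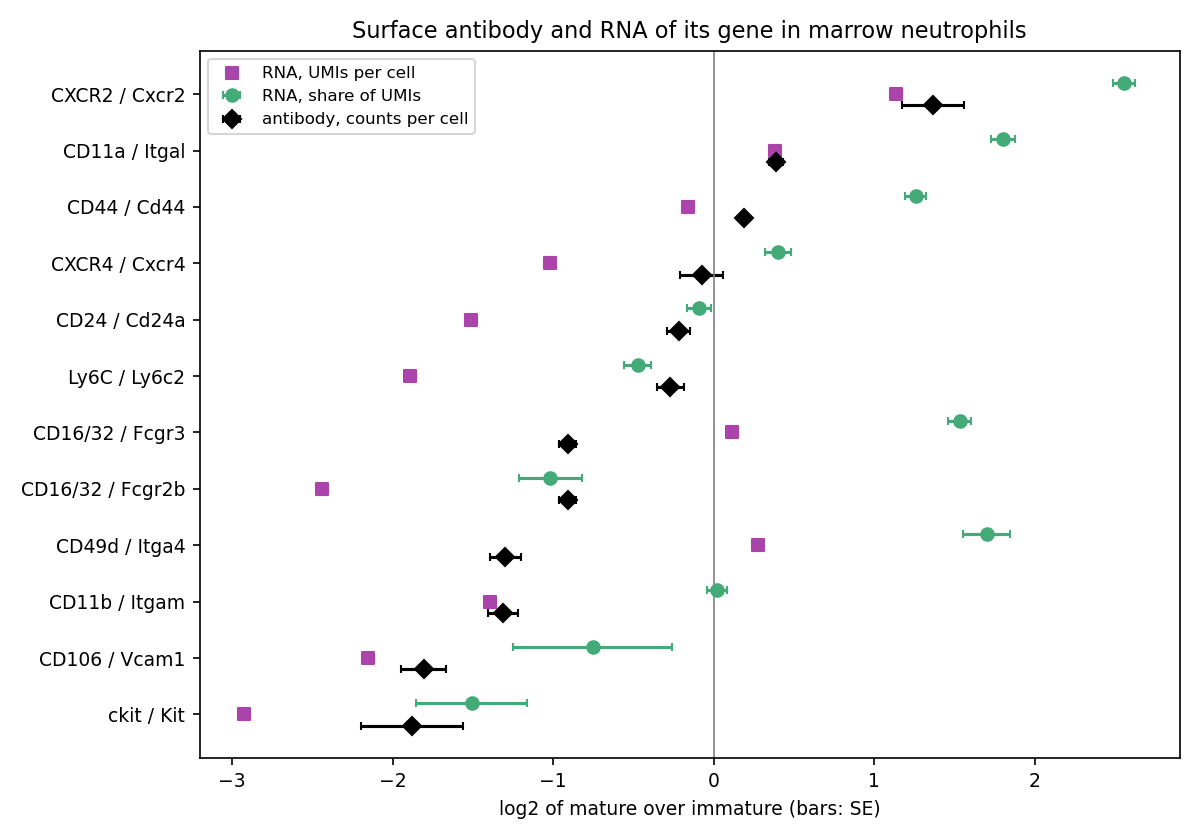
Log2 of mature over immature for 11 surface antibodies (black diamonds, counts per cell) and a gene of each (both Fcgr3 and Fcgr2b for CD16/32), as share of UMIs (green circles) and as UMIs per cell (purple squares); bars are SE. CXCR2 and CD11a lie right of 0 on all 3 scales, CD49d lies left of 0 in antibody and right of it in RNA, and of the genes of CD16/32 Fcgr3 lies right of 0 and Fcgr2b left of it.

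The same thresholds applied to spleen, a separate library, gave 2102 mature and 197 immature cells with a hashtag. Its immature sums held only 10 to 41 cells each. UMIs of Csf1r kept out 1021 further spleen cells that met the mature and 34 that met the immature thresholds. Median UMIs per cell over the spleen hashtags were 2728 to 3069 in mature and 10368 to 18669 in immature cells. In marrow they were 3424.5 to 3989 and 8470 to 9577, so the stages differed more in depth in spleen. The median share of S100a8 and S100a9 in its mature cells was 10.6% to 16.8% over the hashtags, against 26.2% to 31.1% in marrow. EdgeR called 2856 of 6122 spleen genes higher (46.7%) and 1664 lower (27.2%) in the mature sums. Of the 2513 genes higher in marrow, 2422 were tested in spleen, where 2208 were called higher and 17 lower. Of the 2792 genes lower in marrow, 1777 were tested in spleen, where 1449 were called lower and 21 higher. The 5 genes of the thresholds chose the cells in both tissues. In spleen Csf3r was at 4.73, Il1b at 8.49, Retnlg at 2.20, Lcn2 at -3.36 and Cebpe at -4.58 on the log2 scale. Mmp8 was at 0.0374 in spleen and 0.94 in marrow. Xbp1 was at 1.00 in spleen and -0.96 in marrow, called in both, and the difference between the tissues was not tested. Of 17 spleen antibodies tested, 4 were higher (23.5%) and 5 lower (29.4%), with log2 ratios of 1.75 for CXCR2, -1.73 for CD49d and -4.06 for CD106. CD11b (-0.43), CD24 (-0.17), MHCII (-0.0724) and CD64 (0.00631), each lower in marrow, were not called in spleen, and the difference between the tissues was not tested.

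Markers of other cells were summed in each stage. Monocyte genes summed to 514 to 866 CPM in mature and 783 to 967 in immature sums, most of it Ly6c2 (477 to 789.7 CPM in mature and 771 to 945 CPM in immature sums), which neutrophils can also carry and which was lower (-0.47 ± 0.08). Of the 4 other monocyte genes tested, 3 were higher in mature sums and Fn1 was not called. Ctss was at 2.11 ± 0.33 (2.01 to 27.9 CPM in mature and 0.731 to 5.76 CPM in immature sums), F13a1 at 1.87 ± 0.35 (6.89 to 40.2 CPM in mature and 1.65 to 9.72 CPM in immature sums) and Ms4a6c at 0.96 ± 0.31 (2.01 to 20.3 CPM in mature and 1.51 to 7.23 CPM in immature sums), all with overlapping groups and none called per cell (0.70, 0.47 and -0.44 in that order). The Ms4a6c call was also lost with DESeq2 and in 4 other settings (adjusted p up to 0.19; the lowest over its alternatives was 0.0054). Of 3 dendritic cell genes tested, Cd74 was higher (2.51 ± 0.45, 0 to 26.8 CPM in mature and 0.780 to 6.03 CPM in immature sums; 1.10 per cell), Tcf4 lower and Bst2 not called. The part of these genes in the receptor and inflammatory genes that were higher in mature sums was not tested. B cell genes summed to 50.8 to 196 CPM in mature and 35.4 to 59.5 in immature sums, with Vpreb1 and Pax5 at 0 in mature and Ebf1, Vpreb3 and Pax5 at 0 in immature sums. Both tested B cell genes were higher, with Ighm at 1.18 ± 0.12 and at -0.25 per cell. T and NK cell genes summed to 12.1 to 180 CPM in mature and 27.2 to 128 in immature sums, dendritic cell genes to 6.89 to 61.2 in mature and 19.1 to 63.3 in immature, and erythroid genes to 20.7 to 204 in mature and 19.5 to 63.7 in immature sums. Of these, Cd3e, Trbc2, Lck, Klrb1c, Ncr1 and Klf1 were at 0 in mature sums, Gzma, Siglech and Xcr1 in both stages and Ccr9 in immature sums.

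Progenitor genes summed to 0 to 76.2 CPM in mature and 22.9 to 71.2 in immature sums, with Spink2 at 0 in both, and Kit (-1.51 ± 0.34) and Hlf (-2.47 ± 0.51) were lower of 3 tested. Eosinophil, basophil and mast cell genes summed to 12.1 to 163 CPM in mature and 60.3 to 86.4 in immature sums, with Fcer1a and Prss34 at 0 in mature, Epx and Il5ra at 0 in immature sums and Ear2 lower (-2.75 ± 0.20). Platelet genes reached at most 4.61 CPM in mature and 46.0 in immature sums, with Ppbp at 0 in both; Pf4 was lower (-3.24 ± 0.77), with 150 of its 230 immature UMIs in 1 cell. Stromal and endothelial genes reached at most 3.09 CPM in mature and 3.01 in immature sums, with Cdh5 at 0 in both. The part of such cells in the results was not tested.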

How the data were processed

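Per the file headers, the authors counted UMIs per gene and antibody with Cell Ranger 7.0.1 and deposited raw counts of 32285 genes, 10 hashtags (8 in use) and 18 surface antibodies; mm10 is the build named in the submitters' processing notes. The marrow library held 64092351 UMIs. A hashtag was assigned at a count of at least 20 and at least 3 times the next. This leaves out doublets between hashtags of similar counts, but those of unequal counts can stay in. Doublets within a hashtag stayed in, and no doublet caller was run. Of all barcodes, 31 occurred in more than 1 library. Raw counts were summed per stage and hashtag (16 sums). Genes with at least 100 UMIs were tested with edgeR 4.0.16 (R 4.3.3, limma 3.58.1; quasi-likelihood, hashtag as a block, total UMIs as library size), with Benjamini-Hochberg adjustment over all genes and a check on simulated data. Per-cell values use cell numbers in place of library sizes. Alternatives were DESeq2 1.42.0, TMM, other filters, thinning, other thresholds, no block and each hashtag left out. The block rests on the labels, which say that hashtags tell mice apart; deviations of the stages of a hashtag correlated at -0.21 to 0.58 over 1688 genes, and in hashtags 1, 5, 6 and 7 the highest correlation with another hashtag, at 0.18 to 0.67, was above its own.

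Named genes follow a rule: 12 genes each with the highest and the lowest log2 fold change, called and averaging 10 CPM or more, leaving out unnamed genes and those of immunoglobulins, hemoglobins, ribosomes and mitochondria; up to 4 members per list by p; the genes of each antibody; Mmp8 and Retnlg; never Camp, Ngp, Ltf, S100a8, S100a9 or Csf1r. It gave 124 genes; the 91 with a fold change printed were picked after their values were seen, as were Mpo and Elane outside the rule, and other genes are named only as members of a count. Members and lists were chosen with earlier results of these data known. Intervals cover counting error only. Values of 1 surface antibody and some genes, which stay in the counts, are not reported here.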

Additional observations from a re-analysis of the deposited data

Results flagged for a closer look

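In 27 of 219 groups of 8 values, 1 hashtag stood apart from the other 7 of its stage, by its gap to the nearest value over the range of the group. Chance gives about 1 in 20 where values are normally distributed. Genes near 0 or carried by 1 cell, as Prg2 and Ccl5 here, need not keep to that rate, so no excess is read from the count. Among mature sums, hashtag 4 was high for Ctsg (708 CPM, others 8.03 to 281), Canx (60.9, others 10.3 to 31.9) and Hvcn1 (17.8, others 0 to 6.47). The same hashtag was low for Cd44 (508, others 611 to 700.3) and Itgam (513, others 618 to 696) in mature sums and for Cxcr2 (155, others 195 to 229.5) in immature sums. Hashtag 6 was high for Stfa2 (143 CPM, others 17.8 to 66.4) and Ccl5 (1.84, others 0) in mature sums. Hashtag 3 was high for Prg2 (112, others 0) and Hlf (5.74, others 0 to 2.30), and hashtag 7 for Pf4 (4.61, others 0 to 1.84), in mature sums.

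Among immature sums, hashtag 1, with 61 cells, was high for Ccl5 (702 CPM, others 0 to 0.467), Il1b (25.6, others 0 to 9.27) and Mcl1 (184, others 129.7 to 149). Hashtag 7 was high for C5ar1 (145, others 119 to 129.6) and hashtag 2 for Ear2 (78.2, others 54.4 to 64.2). Among antibodies on immature cells, hashtag 1 was high for CD115 (1.69 counts per cell, others 0.531 to 0.901), CD49d (32.1, others 19.6 to 24.3), CD69 (1.57, others 0.341 to 0.908) and CD14 (3.33, others 0.823 to 1.91). Hashtag 7 was low for CD16/32 (25.4, others 35.2 to 37.8). On mature cells, hashtag 1 was high for Ly6C (97.8, others 41.5 to 55.0) and MHCII (12.4, others 4.19 to 7.50). Of the marker genes, F13a1 was high in hashtag 8 among mature sums (40.2 CPM, others 6.89 to 17.8) and in hashtag 3 among immature sums (9.72, others 1.65 to 5.12). Cd74 was high in hashtag 3 among mature (26.8, others 0 to 10.8) and in hashtag 1 among immature sums (6.03, others 0.780 to 2.21).

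Xbp1 was higher in mature than in immature spleen sums in every hashtag (log2 fold change 1.00) and lower in every hashtag in marrow (-0.96); the difference between the tissues was not tested.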

How the results depend on the processing

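Per cell, 465 genes were higher and 6924 lower, and with thinning 1378 and 681, against 2513 and 2792 in the reported test; thinning left 3106 genes to test. Without 1 hashtag the counts ran from 2211 to 2487 higher and from 2324 to 2851 lower. The other settings kept both counts within 1.5 times, without the replicate block too (2557 and 2758). Of 91 genes with a fold change printed, 80 kept direction and call under every setting that tested them, other than UMIs per cell. Settings in which a gene was not tested, as with thinning for some of them, do not enter this count. Per cell, a scale that carries the difference in depth, 15 changed sign: Mmp8 (-0.47), Ctsg (-0.12), Lmnb1 (-0.32), Padi4 (-0.58), C5ar1 (-0.0293), Cxcr4 (-1.02), Cd44 (-0.16), Itgam (-1.40), Taldo1 (-0.21), Pygl (-0.47), Birc3 (-0.14), H2-K1 (-0.87), Slc40a1 (-0.15), Ms4a6c (-0.44) and Ighm (-0.25). Itgam, not called, was also at -0.12 with DESeq2, -0.0296 with thresholds of 3% and 0.3%, -0.28 with library sizes without the genes of the thresholds, -0.18 with means of per-cell counts, -0.0852 thinned and -0.00925 to 0.0495 without 1 hashtag. Ctsg was at -1.34 with S100a8 and S100a9 at 15% or more in mature cells, an alternative chosen after seeing the data, as was leaving out cells with 5 or more Mpo UMIs (2583 and 3074 genes). The causes were not tested. Of the antibodies, 3 to 5 were higher and 8 to 10 lower over the settings. The CCR2 antibody, CD69 antibody and CXCR4 antibody, not called, changed sign with the stricter hashtag call (0.18, 0.0359 and 0.13) and CXCR4 with medians (0.11); without 1 hashtag CCR2 ran from -0.54 to 0.0425 and CXCR4 from -0.12 to 0.0443. The mature share was 46.9% with the stricter hashtag call and 49.9% with Csf1r-positive cells kept. Genes under 100 summed UMIs were not tested.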

Other observations

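Mature neutrophils differed along their share of S100a8 and S100a9; these values carry no test, because the thresholds use both genes. Retnlg averaged 7753 ± 3484 CPM in 112 mature cells with a share of 8% to 15% (SD, n = 8 hashtags), 30543 ± 4285 in 303 cells at 15% to 25% and 47813 ± 2923 in 908 cells at 25% or more. Mmp8 went with it, at 531 ± 393, 1988 ± 508 and 2875 ± 429 CPM in the same order. From 8% upward Csf3r went the other way, at 3463 ± 764, 2343 ± 489 and 1058 ± 147 CPM, as did Il1b, at 2060.5 ± 1018, 630.4 ± 407 and 133 ± 51.1 CPM. Srgn was at 5813 ± 1468, 3605 ± 646 and 1940.2 ± 235 CPM. Median UMIs per cell were 2303.5, 2993 and 4147. In 80 mature cells at 3% to 8%, with 6 hashtags, Csf3r averaged 2008 ± 1502, Il1b 688 ± 623 and Srgn 4543 ± 873 CPM, each below its mean at 8% to 15%, so these genes had no single direction over all 4 ranges. Retnlg was at 3566 ± 3241 and Mmp8 at 532 ± 497 CPM there. In the same cells Mpo averaged 2487 ± 2248 CPM, against 13.6 to 30.0 in the other ranges. Elane averaged 7749 ± 7528 CPM there, against 22.5 to 73.6, and Ctsg 1794 ± 1596, against 19.1 to 19.7. All 8 mature cells with 5 or more Mpo UMIs lay at 3% to 8%. That range thus mixes in cells with RNA of azurophil granules, the first wave, though they met the mature thresholds. Their part in its other values was not tested.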
